A study of Rattus norvegicus with 30 samples.

Results

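The imprinted domain of rat chromosome 1 that holds H19, Igf2, Ins2, Th and Kcnq1 was examined in the meDIP-seq peaks of the PFC. Peaks of the 30 libraries were joined wherever they shared 1 bp or more, and the members are the joined regions called in 2 or more libraries that overlap chr1:215500000-217200000 of Rn6. These were 378 of the 432103 such regions on the autosomes. Another 143 merged regions in the same 1.7 Mb were called in 1 library only and were left out.

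Genomic imprinting marks the maternal and paternal copies of a gene differently by DNAm, so that only 1 parental copy is expressed. H19, a noncoding RNA expressed from the maternal copy, and Igf2, a fetal growth factor expressed from the paternal copy, share a control region that is methylated on the paternal chromosome. Ins2 encodes insulin, Th encodes the rate-limiting enzyme of dopamine and noradrenaline synthesis, and Kcnq1 encodes the pore-forming subunit of a voltage-gated potassium channel. An intron of Kcnq1 holds a second control region, methylated on the maternal chromosome, from which the antisense RNA Kcnq1ot1 starts and which regulates neighbours such as Cdkn1c, an inhibitor of the cell cycle. In a reference gene table of another build, used for names and order only, these genes follow one another as H19, Igf2, Ins2, Th, Ascl2, Tspan32, Cd81, Tssc4, Trpm5, Kcnq1, Cdkn1c, Slc22a18 and Phlda2. The peak files use Rn6 and give no genes, so members are named here by position, and only 2 of them were placed in a gene, an intron of Kcnq1, from the positions in the study's own annotation.

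The libraries came from the PFC of Sprague-Dawley rats at postnatal day 22, with 10 animals in each prenatal group, 5 labelled female and 5 labelled male. Dams of the PAE group drank a liquid diet with 36% of its calories from ethanol, PF dams received a liquid control diet in the amount that a PAE partner had eaten, and CON dams ate the pelleted control diet freely. All diets ran from gestation day 1 to 21. Each group came from 5 dams, and every dam gave 1 animal labelled female and 1 labelled male, so 2 animals of a group share a litter, and PF shares with PAE a reduced intake but not the ethanol, and the restricted ration belongs to PF alone, since PAE dams drank their diet freely.

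Between 11548314 and 16555049 filtered fragments per library lay behind the peaks. The value of a library in a region is the normalized height, its highest pileup (fragments covering the peak summit) per 1000000 filtered fragments. Libraries without a called peak, or below it, were set to a floor of 0.438, so that an uncalled library has no measured height. The floor is not an upper limit, since an uncalled library can hold more coverage than it states. Tissue pieces hold a mixture of cell types and the height of a peak depends on CpG density, so a height is not a methylation percentage and a difference between groups cannot be told apart from a difference in cell mixture. The 5 sequencing lanes did not hold the groups evenly, with no PF library on lane 4 and no PAE library on lane 7, and lane was a term in every fit unless stated. In 18 of the 30 libraries the peaks on the X and Y chromosomes went against the labelled sex, so each result by sex refers to the label alone. Of the 23 libraries with Y chromosome signal 13 were labelled female, and of the 7 without it 5 were labelled male. Whether the labels of group and dam hold in those libraries was not tested, and every group difference below takes them as given.

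Peaks were denser in the domain than on average. It held 222 regions per Mb against 165 over all autosomes, 139 in the 1.7 Mb window below it and 214 in the window above it, and its regions covered 13.4% of its sequence against 9.50% of the autosomes. The length of a member ranged from 269 to 1954 bp (median 539.5 bp, against 499 bp over all autosomes). The dense region was not a frequently called one: a member had a peak in a median of 6.5 libraries against 6 over all autosomes. Of the 378 members, 64 were called in 2 libraries, 107 in 3 to 5, 83 in 6 to 10, 76 in 11 to 20, 39 in 21 to 29 and 9 in all 30. Members called in at least 20 libraries made up 13.2%, against 15.1% of all autosomal regions, 18.1% in the window below and 15.2% in the window above. Their distribution along the domain was uneven, with 9 to 29 members per 100 kb. The tallest members lay in the bins numbered 3 and 4 of these 17, with highest median heights of 1.74 and 1.63, whereas bin 13 had no member called in at least 20 libraries and a highest median height of 0.461.

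**Figure D1:**
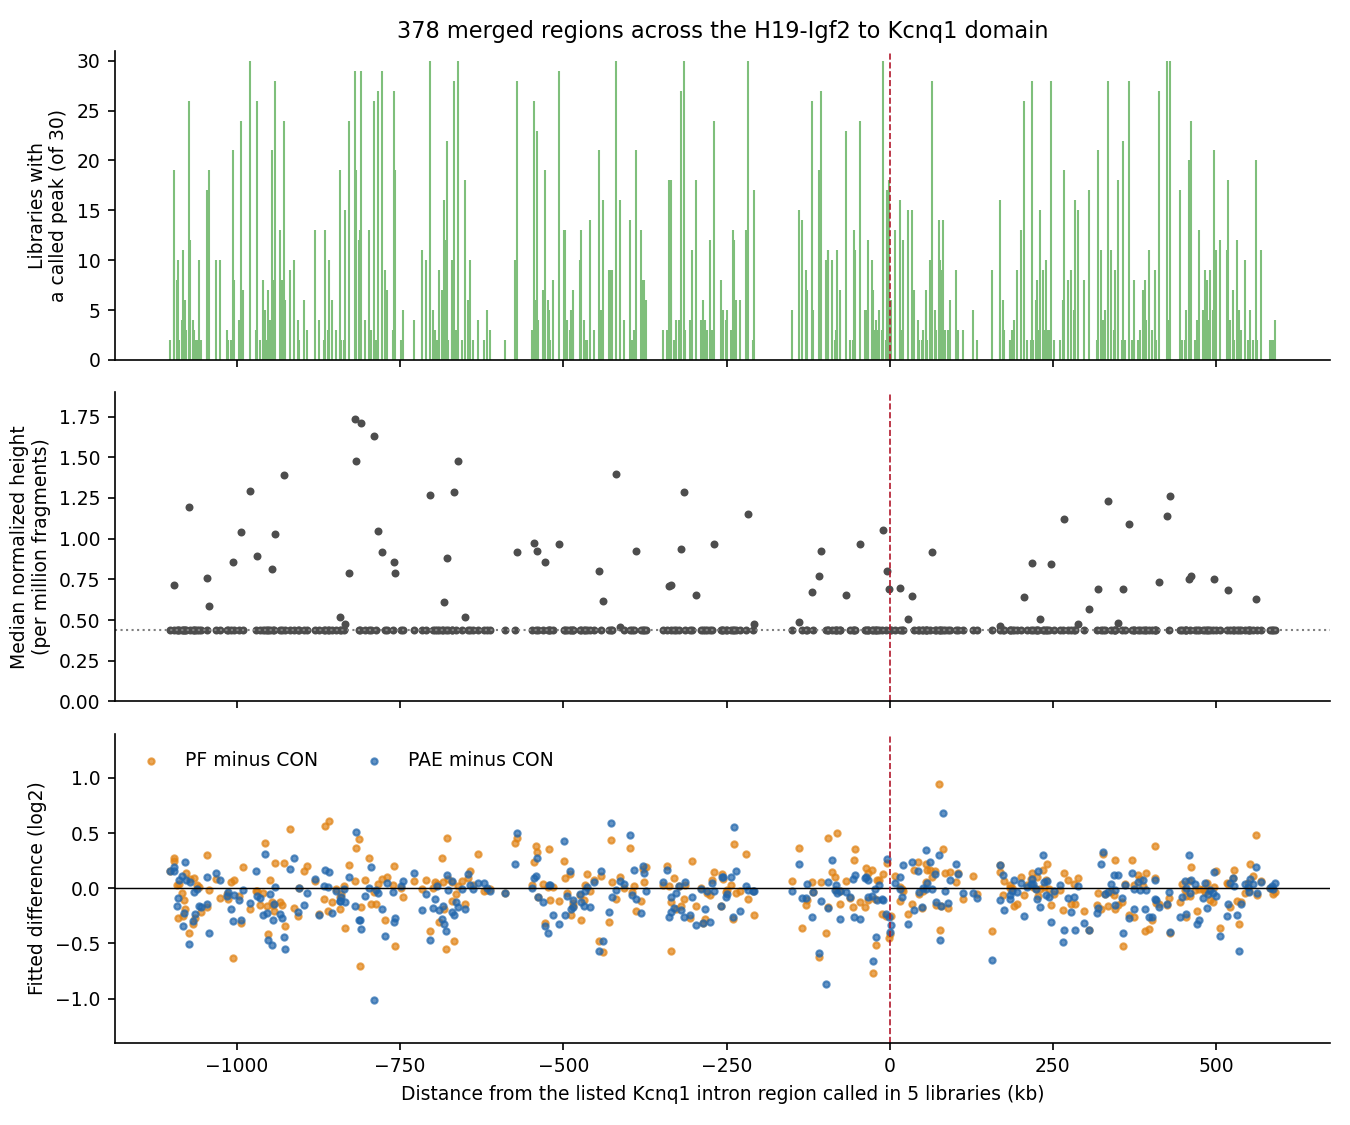
Each line or point is 1 of the 378 members, placed by its distance in kb from the listed Kcnq1 intron region that was called in 5 libraries (dashed line); the panels give the number of libraries with a called peak, the median normalized height over 30 libraries with the floor dotted, and the fitted log2 differences of PF and PAE from CON. The tallest members sit to the left, with medians up to 1.74, and the differences of both contrasts scatter around 0 along the whole domain.

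**Figure D2:**
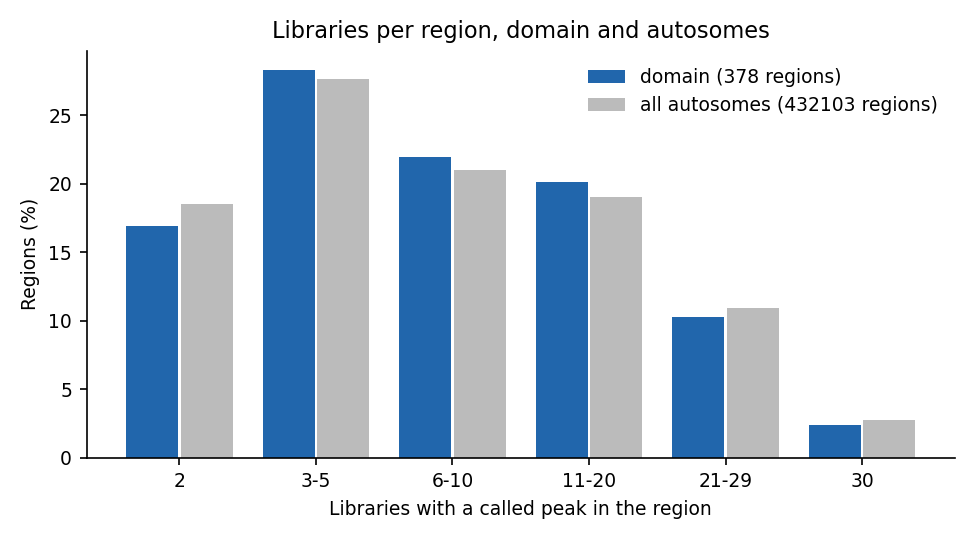
Bars give the percentage of regions called in 2, 3-5, 6-10, 11-20, 21-29 or all 30 libraries, for the 378 members (blue) and for the 432103 autosomal regions (grey). Both sets follow much the same distribution, with 2.38% of members and 2.76% of all regions called in all 30 libraries.

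Members called per library ranged from 90 to 174 in CON with a median of 119.5, from 95 to 156 in PF with a median of 124, and from 76 to 160 in PAE with a median of 105. The groups overlapped over most of their range, with means of 124.1 ± 23.1 in CON, 123.1 ± 17.1 in PF and 109.8 ± 26.3 in PAE (SD, n = 10 each). PAE libraries also had fewer autosomal peaks in all (135828 ± 26494 against 151576 ± 26759 in CON and 143998 ± 19297 in PF). As a share of each library's called autosomal regions, the domain took 0.0830% ± 0.00359 in CON, 0.0867% ± 0.00437 in PF and 0.0816% ± 0.00713 in PAE. The mean number of members called per library ran from 100.6 on lane 4 to 138.7 on lane 8, a wider span than that between the groups.

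By calls alone, 238 members (63.0%, against 63.5% of all regions) had a peak in every group. Only CON libraries had a peak at 16 members (4.23%, against 3.20%), only PF libraries at 7 (1.85%, against 2.23%) and only PAE libraries at 3 (0.794%, against 1.91%). PAE had a peak in fewer libraries than CON at 184 members (48.7%, against 44.8%) and in more at 109 (28.8%, against 30.1%). PF had one in fewer than CON at 144 (38.1%, against 40.8%) and in more at 155 (41.01%, against 33.9%). The numbers of called libraries differed by 5 or more at 4 members between PAE and CON (1.06%, against 1.6% of all regions), at 6 between PF and CON (1.59%, against 1.44%) and at 5 between PAE and PF (1.32%, against 1.33%).

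The 9 members called in all 30 libraries have a measured height everywhere, and their median heights ran from 1.05 to 1.48. Their mean log2 height per library was 0.40 ± 0.18 in CON, 0.30 ± 0.17 in PF and 0.21 ± 0.19 in PAE (SD, n = 10 each), with overlapping groups. Against CON, all 9 were fitted lower in PAE, by a median log2 difference of −0.14, and 7 were lower in PF, with a median of −0.10. Under median ratio scaling 6 were lower in PAE, with a median of −0.02, and 7 in PF, with a median of −0.03. Over all 11914 autosomal regions called in every library, 75.3% were lower in PAE with a median of −0.11, and 66.1% were lower in PF with a median of −0.06.

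**Figure D3:**
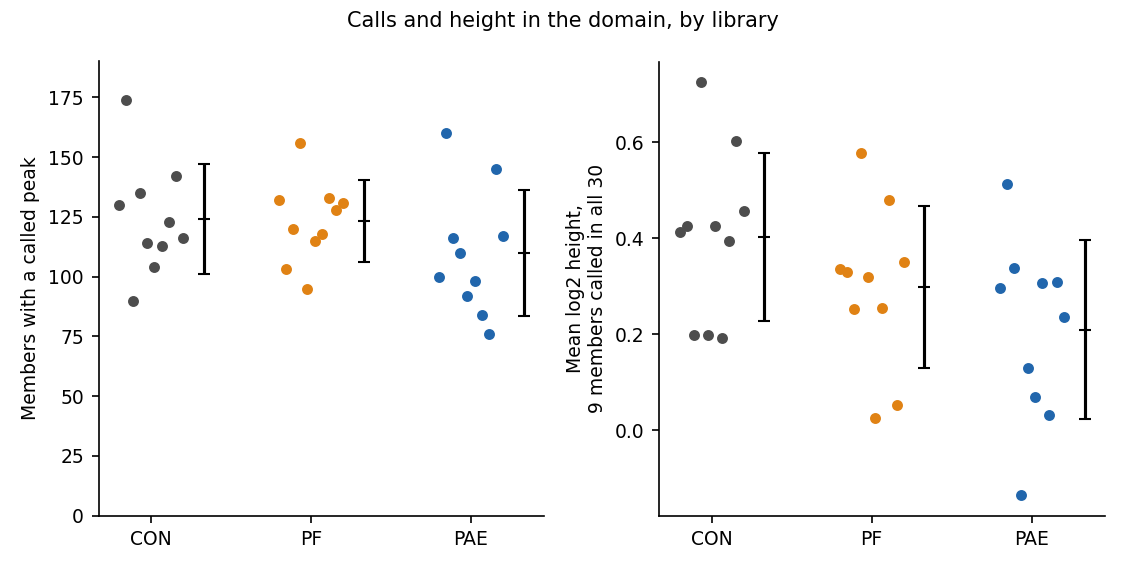
Each point is 1 library (10 per group), with the group mean and SD beside it; the left panel gives the members with a called peak and the right panel the mean log2 normalized height over the 9 members called in all 30 libraries. Means are 124.1, 123.1 and 109.8 members and 0.40, 0.30 and 0.21 log2 units in CON, PF and PAE, and the points of the groups overlap in both panels (PAE minus CON in the right panel is −0.19, and −0.07 under median ratio scaling).

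No member passed an adjusted p of 0.05 in any contrast. With limma and Benjamini-Hochberg adjustment over all 432103 regions, the smallest adjusted p among the 378 members was 0.715 for PAE versus CON, 0.766 for PF versus CON and 0.964 for PAE versus PF, and over all regions 1 passed in the first contrast and none in the others (0.000231%, 0% and 0%). No member had heights that did not overlap between groups in any contrast, which over all regions held for 0.000231%, 0% and 0%. Any 2 of these contrasts share the animals of a group, so their values are given side by side and not as independent evidence.

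At an unadjusted limma p under 0.05, 28 members differed between PAE and CON (7.41%, against 6.67% of all regions), of which 5 were higher (1.32%, background 1.2%) and 23 lower (6.08%, background 5.47%) in PAE. Between PF and CON there were 31 (8.20%, against 5.9%), of which 14 were higher (3.70%, background 1.94%) and 17 lower (4.50%, background 3.96%) in PF. Between PAE and PF there were 15 (3.97%, against 4.18%), of which 4 were higher (1.06%, background 1.46%) and 11 lower (2.91%, background 2.73%) in PAE. The median fitted log2 difference over the members was −0.04 for PAE versus CON, −0.02 for PF versus CON and −0.03 for PAE versus PF, beside −0.04, −0.02 and −0.02 over all regions. PAE was lower than CON at 240 members (63.5%), against 62.1% of all regions. As a ratio to its background, the share of members higher in PF than CON stood furthest above it, and none of these passed the adjusted threshold.

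**Figure D4:**
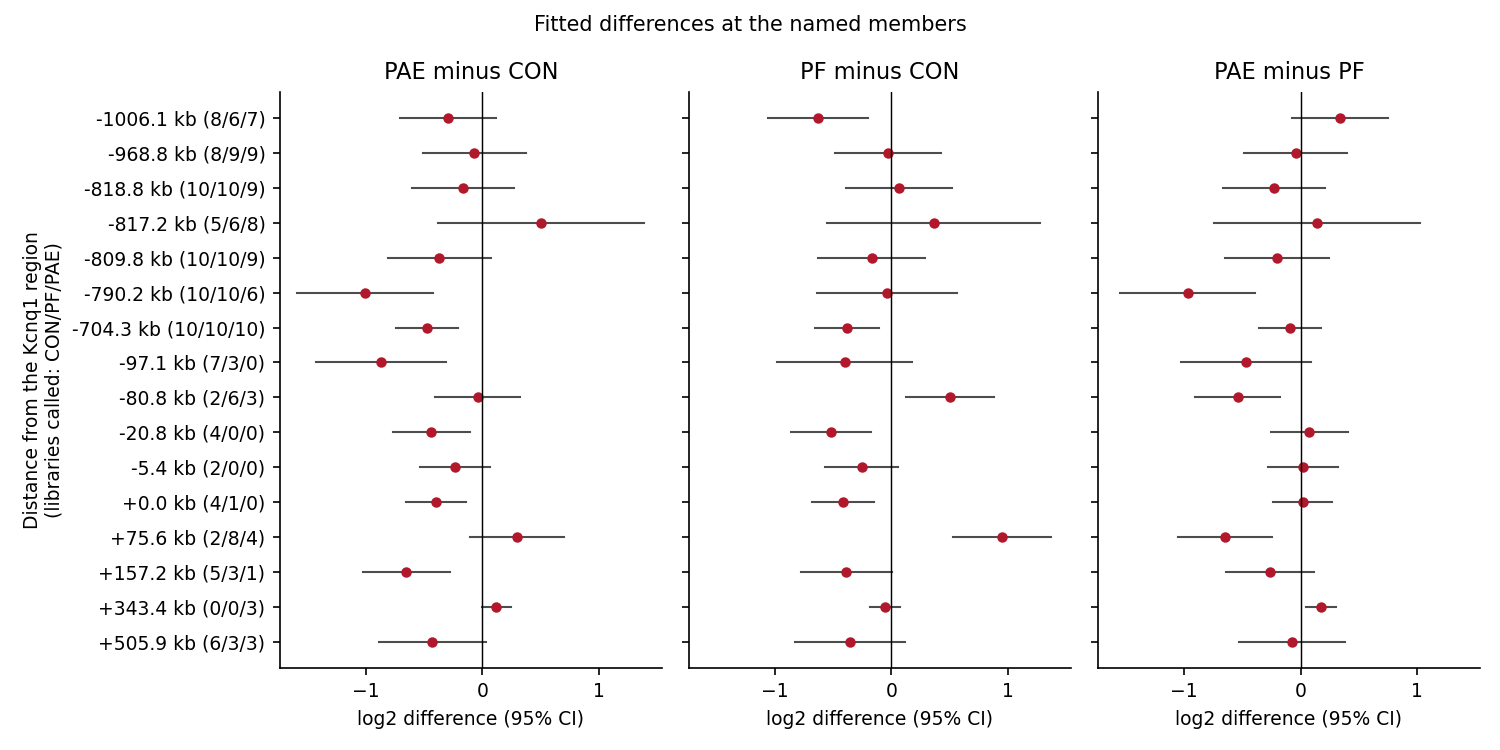
Points are the fitted log2 differences in normalized height at the 16 named members with 95% confidence intervals from limma, 1 panel per contrast; members run from top to bottom by distance in kb from the listed Kcnq1 intron region, with the CON/PF/PAE libraries called in parentheses. The widest difference from CON in PAE is −1.01 and in PF 0.95, and none of these differences passed an adjusted p of 0.05.

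Of the members with the highest median heights, 4 lay within 29243 bp of each other, and the last of them, at 1.48, was level with chr1:215942994-215943548 (555 bp, called in all 30 libraries), which lay outside this stretch. At chr1:215784997-215785849 (853 bp) heights were 1.36, 1.71 and 2.65 in CON (lowest, median and highest), 1.20, 1.69 and 2.55 in PF and 0.438, 1.79 and 2.12 in PAE, and the peak was called in 29 libraries, all but 1 PAE library. At chr1:215793596-215795204 (1609 bp), also called in 29, they were 1.54, 1.73 and 2.45 in CON, 1.24, 1.68 and 2.23 in PF and 0.438, 1.71 and 2.11 in PAE. The groups overlapped at both. Between them, chr1:215786780-215787265 (486 bp) was called in 5 CON, 6 PF and 8 PAE libraries, and it was either tall or not called at all: every called height was at least 1.09, and the highest was 2.86, in PF. PAE minus CON was 0.51 on the log2 scale there with a 95% CI from −0.38 to 1.39, an interval too wide to set a direction.

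This stretch also had a high local background. The caller tests each summit against the coverage around it, and that background can be solved from the deposited fold enrichment and pileup. It had a median of 1.87 fragments over the members, with an interquartile range of 1.45 to 2.36, but 6.33 at chr1:215784997-215785849, 8.81 at chr1:215786780-215787265 and 8.37 at chr1:215793596-215795204. Only 5 members had a median background over 5, all within 10208 bp and among them the 3 just named. The lowest pileup called at those 3 was 16, 18 and 17 fragments, against 5 to 22 with a median of 8 over all members. An uncalled library in this stretch can therefore hold far more coverage than the common floor states. The part of the background in the missing calls was not tested.

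The remaining tall member, chr1:215813815-215814239 (425 bp), gave the smallest p of the domain for PAE versus PF and the next to smallest for PAE versus CON. It was called in all 10 CON and all 10 PF libraries but in 6 of 10 PAE libraries. Heights were 1.05, 1.85 and 2.45 in CON, 1.38, 1.83 and 2.33 in PF, and 0.438, 1.25 and 1.79 in PAE. The 6 called PAE libraries, at 1.21 to 1.79, fell inside the range of CON but not all inside that of PF. PAE replicates 1, 7 and 9 lay below the lowest PF library, at 1.38. They also lay below every CON library except the lowest, at 1.05. PAE replicates 4, 6 and 10 lay inside the ranges of both groups, and 4 PAE libraries (replicates 2, 3, 5 and 8) had no call. Fisher's exact test of the 6 against 10 called libraries gave an unadjusted p of 0.0867 and an adjusted p of 1.00. PAE minus CON was −1.01 ± 0.282 on the log2 scale (SE, 95% CI −1.59 to −0.43, limma unadjusted p = 0.00144, adjusted p = 0.715) and PAE minus PF was −0.97 ± 0.283 (unadjusted p = 0.00205, adjusted p = 0.964), while PF minus CON was −0.04 (95% CI −0.64 to 0.56). The PAE mean was below the CON mean in each of the 4 lanes that held both groups, with log2 differences of −1.84 to −0.43, and below the PF mean in each of the 3 lanes with both. Lanes 5 and 6 held 1 CON library each and lane 8 held 1 PF library. The −1.84 came from lane 8, where PAE replicates 2 and 3 lay at the floor. Members ranked by p were picked on these same values, so agreement between lanes, here and below, is no separate evidence.

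Local background at this member was 1.88 to 3.29 in the called libraries, and its lowest called pileup was 14. When uncalled libraries were set to the lowest called height of the region instead of the common floor, the difference from CON was −0.48 (adjusted p = 0.764) and that from PF −0.54 (adjusted p = 0.972). Of the 5 PAE dams, 2 had a call in both animals, 2 in 1 animal and 1 in neither. The PAE libraries without the call had 76 to 160 of the members called, and those with it 84 to 145. PAE replicate 8, 1 of those without the call, had the fewest members called of all 30 libraries. The part of the number of peaks in the missing calls was not tested.

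The smallest p for PAE versus CON belonged to a region with no missing values. At chr1:215899425-215900459 (1035 bp), called in all 30 libraries, heights were 0.902, 1.52 and 2.17 in CON, 1.07, 1.28 and 1.60 in PF and 0.687, 1.13 and 1.84 in PAE. Both treated groups were centred below CON and overlapped it. The log2 difference from CON was −0.47 ± 0.130 in PAE (limma unadjusted p = 0.0012, adjusted p = 0.715) and −0.38 ± 0.135 in PF (unadjusted p = 0.0085, adjusted p = 0.766), each negative in 4 of 4 lanes, and PAE minus PF was −0.09 (95% CI −0.36 to 0.18). Since the height is measured in every library, the floor has no part in these heights and fitted differences. The SE and p also draw on the spread of all regions, those with floored values included.

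**Figure D5:**
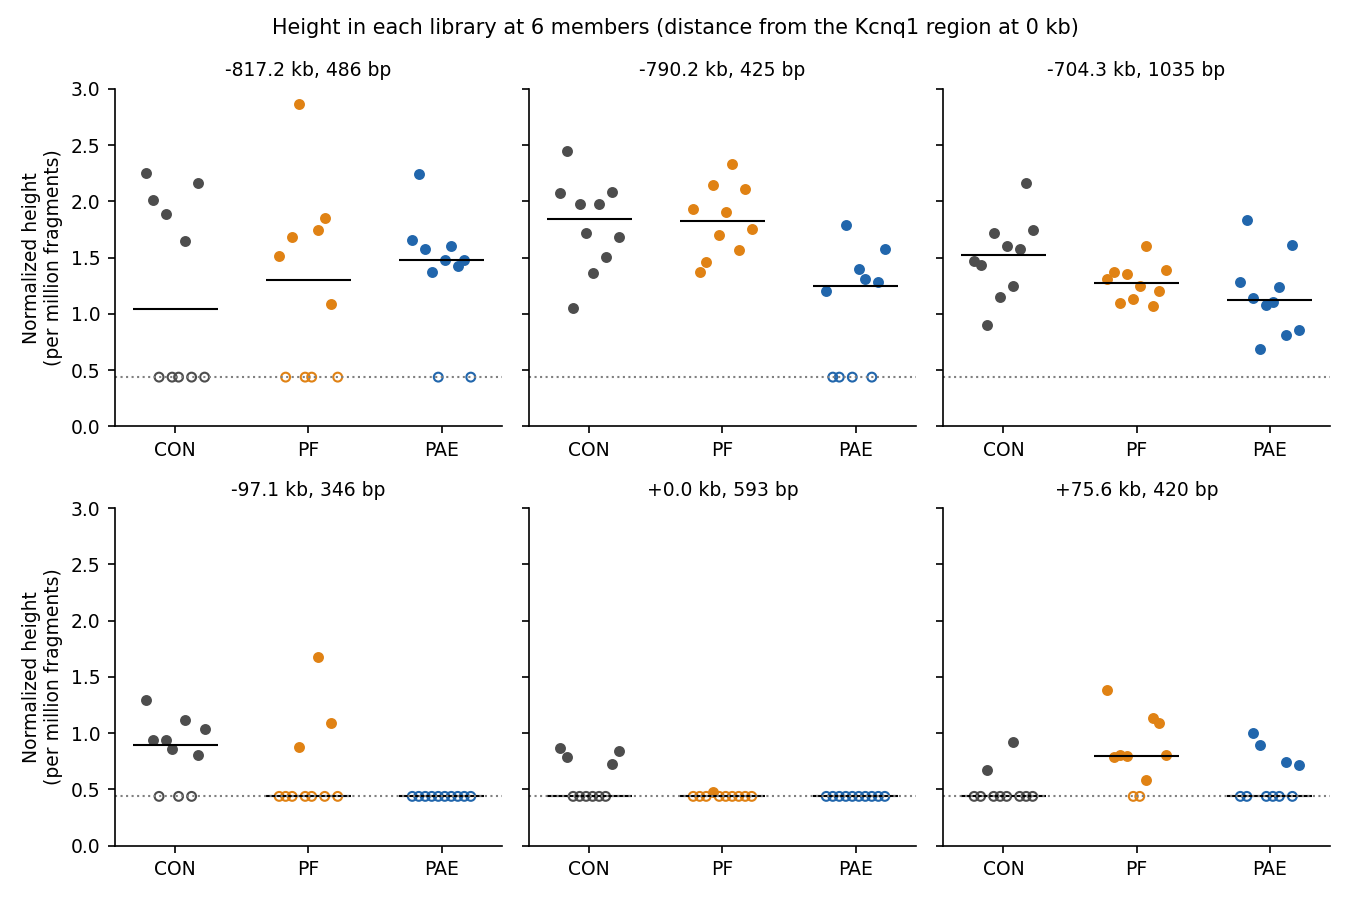
Normalized height in each of 30 libraries at 6 members, titled by distance from the listed Kcnq1 intron region and by length; filled points are called peaks, open points are uncalled libraries set at the floor of 0.438 (dotted), and bars are group medians. At the 425 bp member 4 PAE libraries have no call and all CON and PF libraries do, whereas at the 420 bp member 8 PF libraries are called against 2 CON libraries.

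Other members ranked for PAE versus CON were called in fewer libraries. At chr1:216506982-216507327 (346 bp) 7 CON, 3 PF and 0 PAE libraries had a peak, with called heights of 0.803 to 1.30 in CON and 0.875 to 1.67 in PF. The CON median was 0.898 and the PF and PAE medians lay on the floor. Its PAE minus CON difference was −0.87 ± 0.272 (limma adjusted p = 0.715) with the common floor and −0.21 (adjusted p = 0.764) with the lowest called height as floor. Every PAE library lay at the floor, so PAE could not come out higher and the size depends on the floor. At chr1:216761095-216761848 (754 bp) calls fell on 5 CON, 3 PF and 1 PAE libraries, with a difference of −0.65 ± 0.183 (adjusted p = 0.715) that was negative in 4 of 4 lanes. On lanes 4, 5 and 8 every PAE library lay at the floor, so the difference could not be positive there. Fisher's exact test of the called libraries gave an unadjusted p of 0.0031 at the first and 0.141 at the second (adjusted p = 1.00 at both).

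For PF versus CON the smallest p of the domain was at chr1:216679653-216680072 (420 bp). Peaks were found in 2 CON, 8 PF and 4 PAE libraries, with medians of 0.438 in CON, 0.800 in PF and 0.438 in PAE and highest heights of 0.922, 1.38 and 1.00. PF was higher than CON by 0.95 ± 0.204 (95% CI 0.53 to 1.37, limma unadjusted p = 8.75e-05, adjusted p = 0.766), with a higher mean in 4 of 4 lanes, and PAE minus PF was −0.65 ± 0.197 (adjusted p = 0.964), negative in 3 of 3 lanes. Every CON library on the lanes shared with PF lay at the floor, so PF could not be lower there. Both called CON libraries were on lane 4, which held no PF library. Calls occurred in both animals of 3 PF dams and in 1 animal of the other 2. Fisher's exact test of the 8 against 2 called libraries gave an unadjusted p of 0.023 and an adjusted p of 1.00. Without the lane term the PF minus CON difference was 0.65, and with the lowest called height as floor it was 0.58. Among the 12 libraries whose sex chromosomes did not go against the label, 3 of them CON and 3 PF, it was 0.37. That fit had no term for lane or labelled sex.

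A similar order of calls was found at chr1:216523154-216523621 (468 bp), in 2 CON, 6 PF and 3 PAE libraries. PF minus CON was 0.50 ± 0.183 (limma adjusted p = 0.766) and PAE minus PF −0.54 ± 0.177 (adjusted p = 0.964). Both called CON libraries were again on lane 4, which held no PF library. Every CON library on the lanes shared with PF lay at the floor, so PF could not be lower there. In the opposite direction, chr1:215597512-215598672 (1161 bp) was called in 8 CON, 6 PF and 7 PAE libraries. Its heights were 0.438, 1.11 and 2.01 in CON, 0.438, 0.663 and 1.43 in PF and 0.438, 0.914 and 1.97 in PAE. PF minus CON was −0.63 ± 0.208 (adjusted p = 0.766), negative in 4 of 4 lanes, although the groups overlapped over nearly their whole range. When a peak had to cover 50% of the region it was −0.15, and with a pseudocount of 0.1 and no floor it was −1.24.

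The 2 members that the study's annotation places in an intron of Kcnq1 were selected there on these same animals, so their direction is no independent evidence. Both passed the filter through CON alone. At chr1:216603938-216604530 (593 bp) a peak was called in 4 CON libraries at heights of 0.722 to 0.866, in 1 PF library at 0.477 and in no PAE library. All other libraries lay at the floor, and so did the median of each group. The fitted difference from CON was −0.40 in PAE and −0.41 in PF, a description and not a test, since the member could enter only by being higher in CON. The 4 CON calls came from 4 of the 5 dams, 1 animal each.

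At chr1:216598675-216599003 (329 bp) a peak was called in 2 CON libraries only, both with a height of 1.04. The fitted difference from CON was −0.24 in PAE and −0.26 in PF. With the lowest called height as floor the first was −0.00084 and the second −0.00058, since the called libraries then stand level with the uncalled ones. The listed Kcnq1 regions are 4934 bp apart, and the 2 members between them were called far more often. At chr1:216599981-216600532 peaks were found in 4 CON, 6 PF and 7 PAE libraries, and at chr1:216602454-216603519 in 7 CON, 5 PF and 6 PAE libraries. A short distance before, chr1:216594188-216595154 was called in all 30 libraries with a median height of 1.05 and a PAE minus CON difference of −0.11.

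A short distance before these, chr1:216583173-216583648 (476 bp) was another CON-only member. It was called in 4 CON libraries, with a highest height of 1.15, and in no PF or PAE library. With all PF and PAE libraries at the floor, the direction is again fixed by the filter and the size by the floor: the fitted PF minus CON was −0.52 with the common floor and −0.15 with the lowest called height as floor. The reverse, a peak in PAE alone, was found at chr1:216947449-216947757 (309 bp), called in 3 PAE libraries up to 0.645. The fitted PAE minus PF there was 0.18, of a direction set in the same way.

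The 2 longest members differed in how constant they were. At chr1:215634443-215636396 (1954 bp) 8 CON, 9 PF and 9 PAE libraries had a peak, with medians of 0.894, 0.899 and 0.891, and PAE minus CON was −0.07 (95% CI −0.51 to 0.37). At chr1:217109190-217111062 (1873 bp) calls fell on 6 CON, 3 PF and 3 PAE libraries, with medians of 0.682, 0.438 and 0.438 and a PAE minus CON difference of −0.43 (95% CI −0.89 to 0.03, limma adjusted p = 0.727). Merging joins neighbouring peaks of different animals, so a long member can hold summits at different places.

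The response did not pass the adjusted threshold for a difference between the labelled sexes at any member. The interaction of group with labelled sex had a smallest adjusted p of 0.909, 0.942 and 1.00 for PAE versus CON, PF versus CON and PAE versus PF. Unadjusted, 21 (5.56%), 13 (3.44%) and 14 (3.70%) of the 378 members fell under 0.05, against 4.86%, 4.81% and 2.98% of all regions. At chr1:215813815-215814239 the 6 PAE calls came from 2 animals labelled female and 4 labelled male. Lane was associated with 1 member at an adjusted p under 0.05 (0.265%, against 0.0375% of all regions) and with 38 at an unadjusted one (10.1%, against 12.2%).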

How the data were processed

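DNAm was measured by meDIP-seq in the PFC of 30 rats. Alignment to Rn6 with BWA, filtering with samtools and peak calling in each library with MACS2 (2.1.4 per the file headers, no control, q-value of 0.05) were done by the authors. The deposited signal is the pileup, the fragment coverage at the summit, unscaled. The deposited −log10 q-value set the stricter threshold, and the deposited fold enrichment and −log10 p-value of each summit gave its local background. Over the 10552 summits in the domain and its flanking windows, the Poisson p of the pileup over that background differed from the deposited p by at most 2.42e-05 log10 units.

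Rows of 1 peak were joined and overlapping peaks merged. Members were called in at least 2 libraries, where the study required 3. Log2 heights of all 432103 regions, floored at 0.438, entered limma 3.58.1 (R 4.3.3, trended variance, terms for group, labelled sex and lane), with Benjamini-Hochberg adjustment at 0.05. The fit was also run on simulated normal values, with changes placed only at regions called in all 30 libraries. That run does not cover changes at members called in few libraries. P-values treat the 2 animals of a dam as independent. Named members are those listed in Kcnq1, the 4 with the smallest p per contrast, the 4 tallest (ties by position) and the 2 longest. The members and lists were chosen with earlier results of these data known. Alternatives changed the model terms, floor, filter, scaling, peak threshold, overlap or test, and left out each library. A floor at each region's lowest called height was added after the data were seen. Genes and sequences of members were not analysed here, because the reference tables at hand are of another build, and reads per region were not used here. Python 3.11.15, numpy 2.4.6, pandas 2.3.3, scipy 1.17.1 and matplotlib 3.10.9 were used.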

Additional observations from a re-analysis of the deposited data

Results flagged for a closer look

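Among 35 groups of measured heights and library counts tested for a single sample far from the others, 3 held one, where chance gives about 1 in 20. At chr1:215634443-215636396, PF replicate 4 had a height of 1.59, and the next of the 9 called PF libraries stood at 1.03. PAE replicate 2 was the highest PAE library at 2 members, at both of which a library of another group stood higher. At chr1:215597512-215598672 it had 1.97 with the next of 7 called PAE libraries at 1.09, and at chr1:215786780-215787265 it had 2.25 with the next of 8 at 1.66. PAE replicate 2 also had the most members called of the PAE group, 160 of 378. Both libraries were sequenced on lane 8, the lane with the highest mean number of members called (138.7 per library). The part of lane in these heights was not tested.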

How the results depend on the processing

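No member passed an adjusted p of 0.05 under any alternative run or with any of the 30 libraries left out, and none of the 604 alternative values of the 15 named differences changed sign or passed (lowest adjusted p 0.242). The constant sign is no evidence of stability. Where a whole group lay at the floor it could hardly change, and all these differences were picked by p or listed on these same data. Counts of members at an unadjusted p under 0.05 moved by over 1.5 times in the cases that follow. Among the 9 members called in all 30 libraries, 0 were higher and 2 lower in PAE than CON, 0 and 2 in PF than CON, and 0 and 0 in PAE than PF, which follows from testing so few. With Fisher's exact test of called peaks the counts were 1 higher and 1 lower, 1 and 2, and 1 and 1. A fit of the 12 libraries whose sex chromosomes matched the label had fewer samples and no term for lane or labelled sex. There 0 were higher in PAE than CON, 8 in PF than CON and 2 in PAE than PF. For PAE versus PF, 7 were higher under median ratio scaling and 2 with the lowest called height as floor, against 4, and the cause was not tested. With 1 library left out, PAE versus CON gave 3 to 8 higher (3 without PAE replicate 3, CON 9 or PAE 9, 8 without PAE 8) and 19 to 30 lower, PF versus CON gave 10 to 18 higher and 12 to 23 lower, and PAE versus PF gave 2 to 8 higher (7 without CON 1 or PAE 3, 8 without PAE 9, 2 without PF 2, 3, 5, 6 or 7 or PAE 6) and 7 to 16 lower (7 without PAE 2, 5 or 6). Over the 4 treatments of uncalled libraries, PAE minus CON at chr1:215813815-215814239 ran from −1.91 (pseudocount of 0.1, no floor) to −0.48 (lowest called height), and PF minus CON at chr1:216679653-216680072 from 3.00 to 0.58. The latter was 0.37 in the 12 libraries matching the labelled sex, fitted without lane or labelled sex. PF minus CON at chr1:215597512-215598672 was −0.15 when a peak had to cover 50% of the region. At chr1:215899425-215900459, called everywhere, PAE minus CON kept to −0.54 to −0.36. The ratio of members called in PAE to CON was 0.885, and 0.983 for their share of all called regions; the mean log2 difference of the always called members was −0.19, and −0.07 under median ratio scaling. The labels do not say which PF dam was matched to which PAE dam, so no analysis paired the groups. The 2 animals of a dam were not analysed as a pair for labelled sex. With litter as a random effect no member passed an adjusted p of 0.05, as in the main fit.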
